A study of Mus musculus with 24 samples.

Results

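Gene expression was compared between an early and a late time point in control macrophages that had not received Kdo2 lipid A (KLA), the TLR4 agonist of the study. The members are the control samples without KLA of both macrophage types, 8 of the 24 samples of the series, and they were chosen by cell type and treatment. Thioglycollate-elicited peritoneal macrophages (EPM) were untreated at the early time and had received DMSO, the solvent of KLA, for 12 h at the late time. Bone marrow-derived macrophages (BMDM) had received DMSO for 1 h or for 12 h. All cells came from C57BL/6 mice. Each condition was measured on 1 Agilent whole genome array with 2 channels, in which the Cy5 and the Cy3 dye labelled RNA of 2 biological replicates, so that n = 2 in each of the 4 conditions. The question was which genes drift with time in culture in both types, and which do so in one type only.

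Several features of the design limit this comparison. The EPM contrast sets DMSO against untreated cells and therefore changes both time and solvent, whereas the BMDM contrast holds the solvent constant. EPM and BMDM were on different slides. On both slides the early control lay at array position 1 and the 12 h control at position 3, so that time, array and position cannot be told apart. The replicates of a condition were the channels of a single array, so their spread does not cover array-to-array differences. The p-values therefore measure only the spread between channels.

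Macrophages taken out of the body and plated lose the signals of their tissue and respond to the new surface, serum and medium. Handling and fresh serum are known to induce immediate-early transcription factors such as Nr4a1, Fos and Egr1 within minutes to hours, and their transcripts decay rapidly. Macrophages also carry a tonic type I interferon signal, in which the factor Irf7 and its targets are kept at a low level of expression. BMDM are grown from dividing progenitors with a macrophage growth factor, whereas elicited cells come largely from blood monocytes recruited to the inflamed peritoneum.

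The arrays were of similar quality by detection and saturation. Outlier spots numbered 235 in the Cy5 channel of BMDM at 1 h and 105 to 140 in the other control channels. Between 59.5% and 65.0% of probes were well above background in the 8 control channels and no spot was saturated. Log2 intensities correlated at 0.998 to 0.999 between the channels of an array, at 0.993 to 0.995 between times of a type, and at 0.944 to 0.953 between types. All 10 macrophage markers, among them Adgre1, Cd68 and Csf1r, were well above background in all 8 channels. The 10 fibroblast markers were also well above background in EPM at both times, and their summed signal was 16.17 and 16.28 on the log2 scale in the untreated channels and 16.96 and 16.79 at 12 h. In BMDM that sum was lower, at 12.47 and 12.52 at 1 h and at 12.99 and 12.96 at 12 h. In a bulk sample, more cells of a type and more RNA per cell cannot be told apart.

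Of 16047 genes tested, 1895 were higher (11.8%) and 1496 were lower (9.32%) in EPM at 12 h than in untreated EPM (limma, adjusted p under 0.05). In BMDM, 2297 genes were higher (14.3%) and 1755 were lower (10.9%) at 12 h than at 1 h. The counts of members of gene lists below are to be read against these shares of all genes. Most of the changes called were small. At least 2-fold, 52 genes rose (0.324%) and 52 fell (0.324%) in EPM, and 50 rose (0.312%) and 66 fell (0.411%) in BMDM. With the dye as a replicate block the numbers called rose to 5589 in EPM and 6399 in BMDM. Leaving out a replicate, here and below, sets 1 dye of its condition against both dyes of the other time. In a call lost in this way, the replicate and the dye cannot be told apart. Without the Cy5 replicate of untreated EPM or of EPM at 12 h, 1962 and 2255 genes were called in EPM, and without the Cy5 replicate of BMDM at 1 h or 12 h, 2439 and 2673 were called in BMDM. When each array was taken as 1 sample and the agreement between types as the spread, with 1 residual degree of freedom, no gene passed (limma, smallest adjusted p = 0.36), while 960 genes were higher and 685 lower at an unadjusted p under 0.05.

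A minority of the genes called in one type were called in the same direction in the other. In total, 585 genes were higher in both types (3.65% of those tested) and 454 were lower in both (2.83%), whereas 119 moved up in EPM and down in BMDM and 119 the other way (0.742% each). The shared genes were 30.9% of the higher and 30.3% of the lower calls in EPM, and 25.5% and 25.9% of those in BMDM. Over all genes, 14.3% were higher and 10.9% lower in BMDM, and 11.8% and 9.32% in EPM. Across genes, which are not independent replicates, the changes in EPM and BMDM had a Pearson r of 0.282 and a Spearman rho of 0.292, and a Pearson r of 0.360 over the 13503 genes well above background in all 8 control channels. A shared position on the slide moves with a shared time here, and its part in these figures was not tested.

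**Figure D1:**
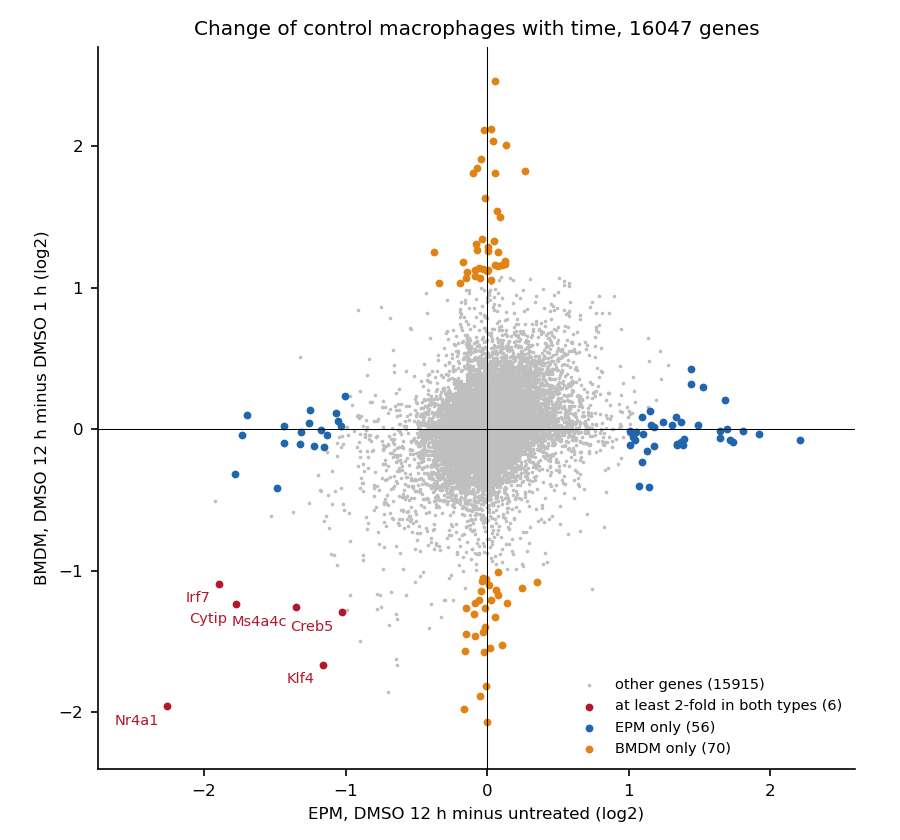
Change of each of 16047 genes between the early and the 12 h control, in EPM on the horizontal and in BMDM on the vertical axis, both on the log2 scale. Named points are the 6 genes at least 2-fold lower in both types, no gene lies at least 2-fold higher in both, and the 56 EPM only and 70 BMDM only genes lie along the axes by the rule that chose them.

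Only decreases reached 2-fold in both types. They were 6 genes, Nr4a1, Klf4, Creb5, Irf7, Cytip and Ms4a4c, and all were well above background in every control channel. No gene rose at least 2-fold in both. With the processed signals of the scanner software in place of the background correction used here, 18 genes rose and 40 fell at least 2-fold in both. With a limit of 0.75 on the log2 scale, 5 genes were higher and 19 lower in both, and with a limit of 0.5 the numbers were 64 and 84. Just outside the 2-fold limit, Srsf5, a splicing factor, changed by -0.99 in EPM and -1.28 in BMDM, and Plk3, a stress-induced kinase, by -0.97 and -1.17. The increases nearest to it were Kifc1, a spindle motor, at 0.90 and 0.94, and the chemokine gene Ccl3 at 0.86 and 0.82.

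Nr4a1, an orphan nuclear receptor and immediate-early gene, fell most (NM_010444, probe on chromosome 15 of mm8, 101102674 to 101102733). Its log2 intensity was 11.44 and 11.29 in untreated EPM and 9.12 and 9.10 after 12 h, and in BMDM it was 12.38 and 12.34 at 1 h and 10.37 and 10.45 at 12 h. The channels of the times did not overlap in either type. The change was -2.26 ± 0.06 (SE) in EPM (limma adjusted p = 2.16e-10) and -1.95 ± 0.06 in BMDM (adjusted p = 3.34e-10), on the log2 scale. Nr4a1 is induced through elements in its proximal promoter, so the 250 bases before its start are shown, with the AP-1-like sequence TGCGTCA in capitals (chr15:101266596-101266845, plus strand, GRCm38.p6, RefSeq).
Nr4a1 promoter: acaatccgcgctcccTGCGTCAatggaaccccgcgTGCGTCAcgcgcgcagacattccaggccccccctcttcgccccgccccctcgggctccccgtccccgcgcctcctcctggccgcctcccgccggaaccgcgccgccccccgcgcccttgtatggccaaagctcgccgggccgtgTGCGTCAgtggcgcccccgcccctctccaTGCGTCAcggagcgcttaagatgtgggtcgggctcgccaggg
Both strands were searched, and the sequence occurred 4 times, all on the strand shown, the nearest ending 35 bases before the start. At least 1 copy was found for 540 of 27025 genes with a promoter in the table (2%), and Nr4a1 was the 1 gene with 4 or more. Of the 12194 tested genes with a promoter, 3.02% held at least 1 copy.

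Klf4 and Creb5 encode transcription factors. Klf4, a Kruppel-like factor of monocyte differentiation, was at 12.55 and 12.33 in untreated EPM and 11.32 and 11.25 at 12 h, and at 11.35 and 11.50 in BMDM at 1 h and 9.68 and 9.85 at 12 h. All 12 h channels lay below the early channels of the same type, and the change was -1.16 ± 0.09 in EPM and -1.66 ± 0.09 in BMDM (limma adjusted p = 1.78e-06 and 4.47e-08). Creb5, a CRE-binding factor, went from 8.16 and 8.08 to 7.08 and 7.11 in EPM and from 9.62 and 9.47 to 8.34 and 8.16 in BMDM. Its change was -1.03 ± 0.12 and -1.29 ± 0.12 (adjusted p = 5.71e-05 and 6.27e-06). One promoter listed for Creb5 holds a full cAMP response element, TGACGTCA, in capitals, as do 478 of all 27025 genes (1.77%) (chr6:53287053-53287302, plus strand, GRCm38.p6).
Creb5 promoter: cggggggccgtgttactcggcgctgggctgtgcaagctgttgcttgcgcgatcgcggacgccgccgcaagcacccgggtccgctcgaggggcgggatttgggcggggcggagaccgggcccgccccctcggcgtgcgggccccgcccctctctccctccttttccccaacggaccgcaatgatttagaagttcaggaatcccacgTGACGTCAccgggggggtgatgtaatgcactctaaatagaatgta
Of the 6 genes lower in both types, this element was found for Creb5 alone. Of the 12194 tested genes with a promoter, 2.72% held it.

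Irf7, the master factor of the type I interferon response, was at 11.60 and 11.66 in untreated EPM and at 9.501 and 9.97 at 12 h. In BMDM it was at 12.88 and 13.11 at 1 h and at 11.75 and 12.06 at 12 h. The channels did not overlap between times, and the change was -1.89 ± 0.17 in EPM and -1.09 ± 0.17 in BMDM (limma adjusted p = 4.05e-06 and 0.000384). Cytip, a scaffold protein that regulates leukocyte adhesion, went from 11.07 and 11.05 to 9.28 and 9.29 in EPM and from 10.60 and 10.54 to 9.36 and 9.32 in BMDM. Ms4a4c, a tetraspan membrane protein gene, went from 8.09 and 8.02 to 6.60 and 6.81 in EPM and from 11.70 and 11.56 to 10.38 and 10.37 in BMDM. Its level was far higher in BMDM at both times on this probe. Its change was -1.35 ± 0.08 in EPM and -1.26 ± 0.08 in BMDM, and a difference was not detected (0.09 ± 0.11, limma adjusted p = 0.638). The changes of Cytip differed, at -1.78 and -1.23 (difference 0.54 ± 0.10, adjusted p = 0.00179). For Cytip, Creb5 and Ms4a4c other probes of the gene changed less, and with all probes averaged 3 genes stayed at or past 2-fold in both types. Both other Cytip probes were well above background in all 8 control channels. One changed by -0.22 in EPM and -0.29 in BMDM, and the other by -0.15 in EPM and in the opposite direction in BMDM, by 0.19.

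**Figure D2:**
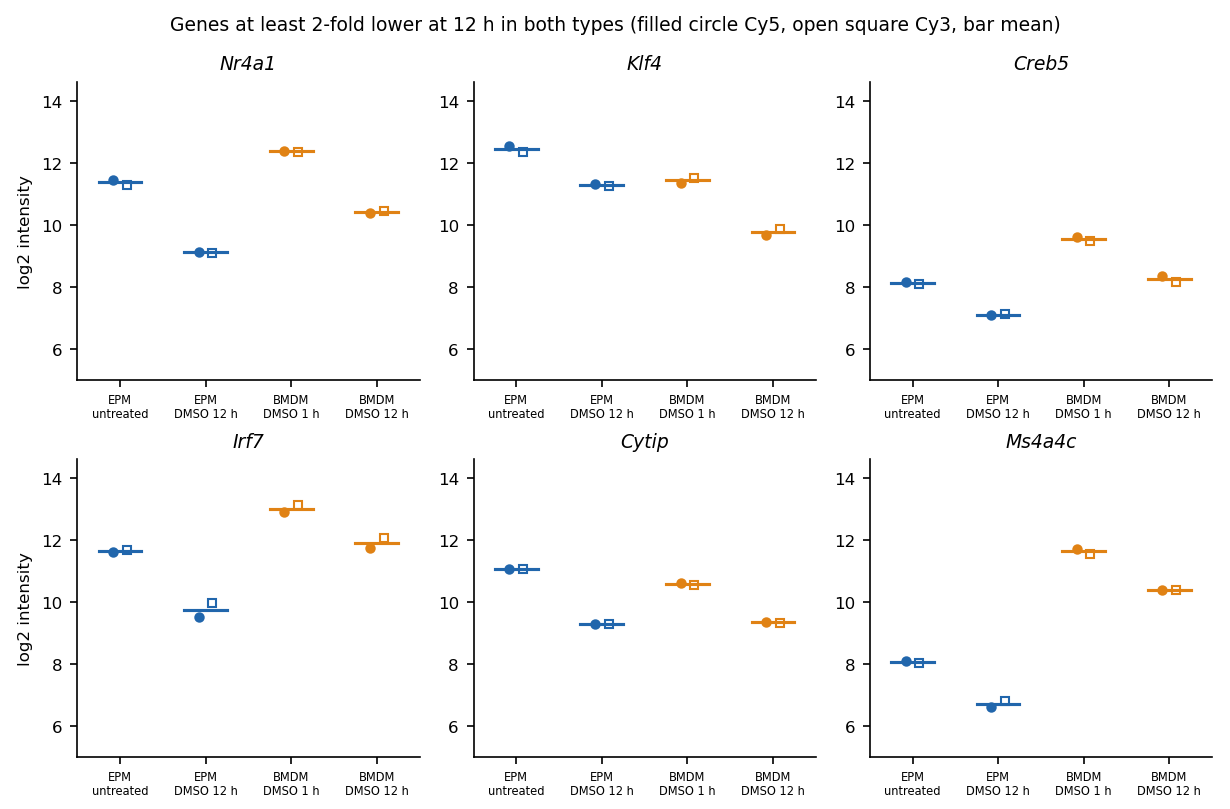
Log2 intensity of the 6 genes that were at least 2-fold lower at 12 h in both types, by condition, with the Cy5 channel as a filled circle, the Cy3 channel as an open square and their mean as a bar. In every panel the 12 h channels lie below the early channels of the same type.

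Among immediate-early transcription factors the decrease was partial. Of 24 tested members, 13 were lower and 3 higher in EPM, and 11 were lower and 2 higher in BMDM, with 8 lower in both. The median change was -0.30 in EPM and -0.09 in BMDM, against -0.0006 and 0.007 over all genes. Beside Nr4a1 and Klf4, the AP-1 family genes Fosl2 (-0.68 and -1.15) and Maff (-0.64 and -1.31) and the growth-response gene Ier2 (-0.73 and -0.60) fell in both types. Second probes of Fosl2 (-0.14 and -0.15) and Ier2 (-0.06 and -0.02), well above background in all 8 control channels, changed less. Nr4a2, a paralogue of Nr4a1, changed by -0.33 in EPM and -1.33 in BMDM, and the difference passed (adjusted p = 0.000214). Other members went their own way. Zfp36, which encodes an mRNA decay factor, fell from 11.18 and 11.27 to 10.21 and 10.13 in EPM and was at 10.99 and 10.88 and then 10.98 and 11.01 in BMDM (difference of change 1.12 ± 0.10, adjusted p = 5.61e-06). A second Zfp36 probe changed by -0.74 in EPM and -0.37 in BMDM, so the unequal change was smaller there. The antiproliferative gene Btg2 fell by 0.68 in EPM and rose by 0.79 in BMDM. Atf3, a stress-response factor, was at 0.02 and 0.01, and the members Egr1 and Jun rose in EPM, by 0.37 and 0.39, with the Egr1 call lost without the Cy5 replicate of EPM at 12 h or the Cy3 replicate of untreated EPM.

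Interferon-stimulated genes fell broadly in EPM and less so in BMDM. In EPM, 24 of 26 tested members were lower and none higher, with a median of -0.82, and in BMDM 15 were lower and 1 higher, with a median of -0.39. The 15 were all lower in both types. The change was less negative or more positive in BMDM for 11 members past the threshold of the difference and the reverse for none, against 9.01% and 8.69% of all genes. With arrays as samples, 18 of 26 were lower at an unadjusted p under 0.05 (69.2%, against 4.27% of all genes). The counts of members lower ran from 22 to 25 in EPM and from 10 to 17 in BMDM over the alternatives that kept the control reference.

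Ifit3, an RNA-binding antiviral protein, was at 9.67 and 9.36 in untreated EPM and at 7.57 and 7.61 at 12 h, and in BMDM it was at 12.69 and 12.44 and then at 12.17 and 11.93. The EPM channels separated by time and so did those of BMDM, with changes of -1.92 ± 0.12 and -0.51 ± 0.12 (difference 1.41 ± 0.16, limma adjusted p = 4.88e-05). The BMDM call was lost without the Cy5 replicate at 1 h or the Cy3 replicate at 12 h. Either omission leaves the dyes unbalanced between the times. Zbp1, a nucleic acid sensor, changed by -1.53 and -0.61, Oasl1, an OAS-like protein, by -1.26 and -0.52, and Isg15, a ubiquitin-like modifier, by -1.10 and -0.53. Gbp2, a guanylate-binding GTPase, changed by -0.60 and -0.63 with no called difference (-0.04 ± 0.13). Mx2, an antiviral GTPase, was the exception, falling by 0.83 in EPM and rising by 0.50 in BMDM, from 9.07 and 8.75 to 9.62 and 9.19. That rise was lost without the Cy5 replicate at 12 h or the Cy3 replicate at 1 h.

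The interferon-stimulated response element is the site bound by interferon-activated and interferon regulatory factors, and its core, GAAA repeated after a gap of 2 bases, was searched on both strands. It was found for 10 of the 20 tested members with a promoter in the RefSeq table (50%), against 936 of 27025 genes (3.46%). Among the 12194 tested genes with a promoter, the share was 3.37%. Ifit3 (chr19:34583279-34583528, plus strand, GRCm38.p6) and Isg15 (chr4:156200819-156201068, minus strand, GRCm38.p6) are shown as members with more than 1 match, with the matches on either strand in capitals.
Ifit3 promoter: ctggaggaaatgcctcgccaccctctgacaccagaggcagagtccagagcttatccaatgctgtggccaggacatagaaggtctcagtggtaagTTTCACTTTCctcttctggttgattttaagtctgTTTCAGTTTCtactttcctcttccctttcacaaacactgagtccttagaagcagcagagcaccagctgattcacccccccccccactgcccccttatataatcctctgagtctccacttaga
Isg15 promoter: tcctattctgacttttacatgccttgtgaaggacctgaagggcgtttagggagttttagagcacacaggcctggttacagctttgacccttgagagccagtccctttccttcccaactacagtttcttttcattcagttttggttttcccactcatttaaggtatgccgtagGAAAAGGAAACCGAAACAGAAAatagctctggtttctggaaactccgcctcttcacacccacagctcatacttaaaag
Isg15 held 3 overlapping matches and Ifit3 held 2. Of the 6 genes lower at least 2-fold in both types, the core was found for Cytip. The scanner file places the Isg15 probe on chromosome 17 of mm8, while the RefSeq table has the gene on chromosome 4 of GRCm38.p6.

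Cell cycle genes moved the other way in both types. Of 37 tested members, 27 were higher in EPM and 31 in BMDM, none was lower, and all 27 rose in both. The median change was 0.37 in EPM and 0.54 in BMDM, and 5 members rose more in BMDM past the threshold of the difference. With arrays as samples, 31 of 37 were higher at an unadjusted p under 0.05 (83.8%, against 5.98% of all genes). Plk1, the mitotic polo kinase, was at 10.54 and 10.50 in untreated EPM and 11.29 and 11.33 at 12 h, and at 11.10 and 11.12 in BMDM at 1 h and 12.12 and 11.99 at 12 h, a change of 0.79 ± 0.07 and 0.94 ± 0.07 (limma adjusted p = 2.03e-06 and 2.92e-07). Cdc20, an activator of the anaphase-promoting complex, went from 11.67 and 11.59 to 12.49 and 12.31 in EPM and from 11.41 and 11.47 to 12.21 and 12.32 in BMDM. Ccnb2, a mitotic cyclin, rose by 0.58 and 1.01, Kif20a, a mitotic kinesin, by 0.72 and 0.86, and Mki67 by 0.37 and 0.70. Of the members that act in DNA synthesis, Tk1, thymidine kinase, rose by 0.55 and 0.73 and Tyms, thymidylate synthase, by 0.42 and 0.60. Mcm5 and Mcm6, subunits of the replicative helicase, rose by 0.25 and 0.24 in EPM and by 0.40 and 0.38 in BMDM, while Pcna, the sliding clamp, was at -0.03 and 0.12 and Cdt1, a licensing factor, at -0.13 and -0.08. Mki67, the proliferation antigen, was at 10.71 and 10.86 in untreated EPM and at 12.22 and 12.30 in BMDM at 1 h.

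The cell cycle homology region, TTTGAA, is a short element of genes expressed in mitosis. It was found for 10 of 31 members with a promoter (32.3%), against 4934 of 27025 genes (18.3%), and the E2F-like sequence TTTCNCGC was found for 6 of 31 (19.4%, against 2.02%). Among the 12194 tested genes with a promoter, the shares were 14% and 3.18%. Cdc20 is shown with its match in capitals, which ends 12 bases before the start (chr4:118437344-118437593, minus strand, GRCm38.p6).
Cdc20 promoter: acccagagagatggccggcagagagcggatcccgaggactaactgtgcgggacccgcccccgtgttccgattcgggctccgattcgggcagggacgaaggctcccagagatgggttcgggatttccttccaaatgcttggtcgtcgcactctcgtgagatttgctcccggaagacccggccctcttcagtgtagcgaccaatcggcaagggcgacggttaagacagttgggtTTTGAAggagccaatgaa

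Sterol genes changed in opposite directions in the cell types. These genes encode the enzymes of cholesterol synthesis and proteins of its uptake and are targets of the sterol sensor SREBP2. Of 24 tested members, 15 were higher and none lower in EPM, with a median of 0.32, while 1 was higher and 14 were lower in BMDM, with a median of -0.30. Of these, 12 rose in EPM and fell in BMDM, and 17 had a lower change in BMDM past the threshold of the difference. Hmgcs1, which makes HMG-CoA, was at 12.19 and 12.15 in untreated EPM and 12.93 and 12.63 at 12 h, but at 11.79 and 11.56 in BMDM at 1 h and 11.37 and 11.26 at 12 h. Cyp51, lanosterol demethylase, rose by 0.41 ± 0.07 in EPM and fell by 0.88 on the log2 scale in BMDM (difference -1.29 ± 0.10, limma adjusted p = 2.27e-06). Idi1, an isopentenyl diphosphate isomerase, went from 11.07 and 11.14 to 11.62 and 11.73 in EPM and from 11.13 and 11.03 to 10.37 and 10.31 in BMDM. The scanner file places this Idi1 probe on chromosome 2 of mm8, while the RefSeq table has the gene on chromosome 13 of GRCm38.p6, and a second probe changed by 0.27 and -0.27. Srebf2, which encodes SREBP2, was at 0.00 and -0.09. Over the alternatives that kept the control reference, 10 to 19 members were higher in EPM and 10 to 16 lower in BMDM.

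**Figure D3:**
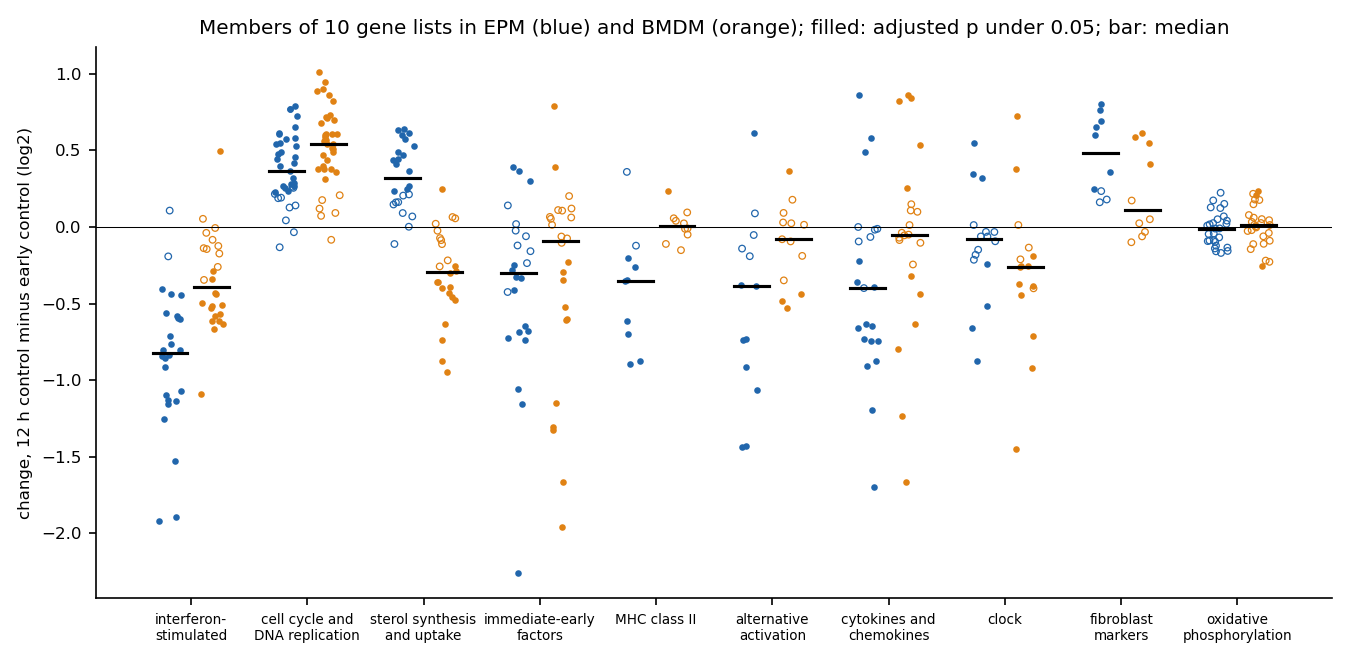
Change between the early and the 12 h control for the members of 10 gene lists, in EPM (blue) and BMDM (orange), on the log2 scale. Filled points passed an adjusted p of 0.05 and bars are medians, which lie below 0 in both types for interferon-stimulated genes, above 0 in both for cell cycle genes and on opposite sides of 0 for sterol genes.

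Antigen presentation and alternative activation genes fell in EPM. Of 10 tested MHC class II genes, 8 were lower and none higher in EPM, with a median of -0.35, and 1 was higher in BMDM, with a median of 0.01. The difference between types passed for 7. H2-Ab1, a class II beta chain, was at 13.44 and 13.46 in untreated EPM and at 12.53 and 12.59 at 12 h, against 8.12 and 8.18 and then 8.05 and 7.95 in BMDM (difference 0.74 ± 0.08, limma adjusted p = 2e-05). H2-Aa, a class II alpha chain, changed by -0.88 in EPM and was not well above background in BMDM. Without the Cy5 replicate of EPM at 12 h, 5 class II genes were lower. Of 13 genes of alternative activation, 8 were lower and 1 higher in EPM (median -0.39), and 3 were lower and 1 higher in BMDM (median -0.08). Arg1, which encodes arginase, was at 10.33 and 10.37 in untreated EPM and at 9.02 and 8.82 at 12 h, and was not well above background in BMDM. Clec10a, a galactose-type lectin, was at 11.62 and 11.51 and then at 10.18 and 10.08 in EPM, but at 10.34 and 10.06 and then 10.35 and 10.10 in BMDM (difference 1.46 ± 0.15, adjusted p = 2.15e-05). Retnla, a secreted protein induced by interleukin 4, fell by 0.74 in EPM and was not well above background in BMDM.

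Cytokines and chemokines were mixed. Of 22 tested, 13 were lower and 3 higher in EPM (median -0.40), and 6 were lower and 5 higher in BMDM (median -0.05). Il1b, which encodes interleukin 1 beta, was at 7.99 and 7.84 in untreated EPM and was not well above background at 12 h, so that it was at least 3.25-fold lower (limma adjusted p = 5.6e-08). In BMDM it was at 8.87 and 8.93 at 1 h and higher by 0.10 ± 0.09 at 12 h, which did not pass (adjusted p = 0.472). Tnf went from 9.69 and 9.71 to 8.45 and 8.56 in EPM and from 12.43 and 12.48 to 12.07 and 12.20 in BMDM, a smaller change (difference 0.87 ± 0.10, adjusted p = 5.65e-05). The chemokine genes Cxcl10 and Cxcl2 fell in EPM, by 0.91 and 0.75, and rose in BMDM, by 0.84 and 0.86. Ccl7, a monocyte chemoattractant, fell in both, by 0.64 in EPM and by 1.66 in BMDM, from 13.05 and 13.03 to 11.32 and 11.42. Ccl3 was 1 of 2 members higher in both types, beside Ccl4. It went from 10.37 and 10.44 to 11.33 and 11.21 in EPM and from 13.10 and 12.90 to 13.94 and 13.71 in BMDM.

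Surface receptors were lower more often in EPM by count. Of 25 tested, 11 were lower and 1 higher in EPM, against 6 and 6 in BMDM. Cd14, a co-receptor of TLR4, changed by -0.98 in EPM and -0.04 in BMDM, and Marco, a scavenger receptor, by -0.87 and -0.25. Cx3cr1, the fractalkine receptor, was at 7.06 and 7.12 in untreated EPM and 6.73 and 6.69 at 12 h, and at 8.22 and 8.28 in BMDM at 1 h and 9.48 and 9.52 at 12 h. All BMDM channels at 12 h lay above those at 1 h, with a change of 1.25 ± 0.06 against -0.38 ± 0.06 in EPM (difference 1.63 ± 0.09, limma adjusted p = 7.85e-08). The smaller fall in EPM was called as well. A second Cx3cr1 probe, well above background in all 8 control channels, changed by -0.03 in EPM and 0.48 in BMDM. Itgax, an integrin of dendritic cells and tissue macrophages, rose in both on its brightest probe, by 0.53 and 0.56. A second Itgax probe, well above background in all 8 control channels, changed by 0.32 in EPM and -0.22 in BMDM. The BMDM call was lost with the mean of probes.

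Id1, Smad6, Nab2 and Bhlhe40 were among the decreases in BMDM only. Id1, an inhibitor of basic helix-loop-helix factors and a BMP target, was at 12.70 and 12.69 in BMDM at 1 h and at 10.62 and 10.63 at 12 h, and at 10.11 and 10.01 and then 10.09 and 10.03 in EPM. Its change was -2.07 ± 0.06 in BMDM and 0.00 ± 0.06 in EPM (difference -2.07 ± 0.09, limma adjusted p = 1.23e-08). Against the KLA 1 h array of BMDM, in place of the 1 h control, Id1 was higher at 12 h, by 1.12. Smad6 and Smad7, inhibitors of BMP and TGF-beta signals, changed by -1.46 and -1.86 in BMDM and by -0.09 and -0.70 in EPM (adjusted p of the differences 5.32e-06 and 0.00179). Nab2, a corepressor of Egr factors, was at 10.85 and 10.87 and then at 8.83 and 8.94 in BMDM, but at 9.76 and 9.52 and then 9.47 and 9.47 in EPM. Bhlhe40, a repressor of clock genes, fell from 9.59 and 9.59 to 8.15 and 8.14 in BMDM (change -1.45 ± 0.06) and was at -0.15 ± 0.06 in EPM (difference adjusted p = 4.44e-07).

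Of 16 clock genes tested, 10 were lower and 2 higher in BMDM, with a median of -0.26, and 4 were lower and 3 higher in EPM, with a median of -0.08. By the test of the difference, the BMDM change was lower for 5 and higher for 2. Without the Cy5 replicate of BMDM at 1 h, 6 were lower in BMDM. Nfil3, a repressor of clock output, fell in both types, by 0.88 and 0.92, and Arntl, which encodes the activator BMAL1, fell by 0.51 in EPM and rose by 0.38 in BMDM. Dbp and Tef, activators of clock output, rose in EPM, by 0.55 and 0.34, and fell in BMDM, by 0.39 and 0.26. The fall of Dbp was lost without the Cy5 replicate of BMDM at 12 h or the Cy3 replicate at 1 h, and that of Tef without the Cy5 replicate at 1 h or the Cy3 replicate at 12 h. The probes of Nr1d1 disagreed, at 0.72, -0.74 and -0.42 in BMDM. Genes of the integrated stress response also split. Asns, asparagine synthetase, changed by 0.40 in EPM and -0.65 in BMDM, while Trib3, a pseudokinase, fell in both, by 0.78 and 1.27. Of 22 tested, 6 were higher and 3 lower in EPM, and 1 was higher and 9 were lower in BMDM.

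Cxcl12, Mgp and Tagln were among the increases in EPM only. Cxcl12, a chemokine made by stromal cells, was at 10.57 and 10.40 in untreated EPM and 12.29 and 12.05 at 12 h, and at 7.13 and 7.07 and then 7.33 and 7.28 in BMDM (difference -1.48 ± 0.12, limma adjusted p = 3.29e-06). Mgp, matrix Gla protein, changed by 1.52 in EPM and 0.30 in BMDM, and Tagln, an actin-binding protein of smooth muscle, by 1.44 and 0.42. Outside that class, Mmp2, a gelatinase, rose by 1.20 in EPM and was at 0.21 in BMDM. Timp1, a protease inhibitor, rose in both, by 1.22 in EPM and 0.55 in BMDM, where the call was lost without the Cy5 replicate at 1 h or the Cy3 replicate at 12 h. Fibroblast markers moved with these genes. Of 10 tested, 7 were higher and none lower in EPM, with a median of 0.48, and 4 were higher in BMDM, among them Col1a1 (0.76 and 0.59) and Col1a2 (0.69 and 0.61). The part of the fibroblast signal in these increases was not tested. Mesothelial markers were split in EPM, with 5 higher and 2 lower of 8 and a summed level of 12.27 and 12.17 that went to 12.42 and 12.37. Of 11 neutrophil markers tested, 4 were lower in each type, with a median of -0.02 in EPM and -0.21 in BMDM, and their summed level went from 12.03 and 12.08 to 11.70 and 11.78 in EPM and from 14.18 and 14.25 to 13.70 and 13.90 in BMDM. The part of these cells in the decreases was not tested.

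**Figure D4:**
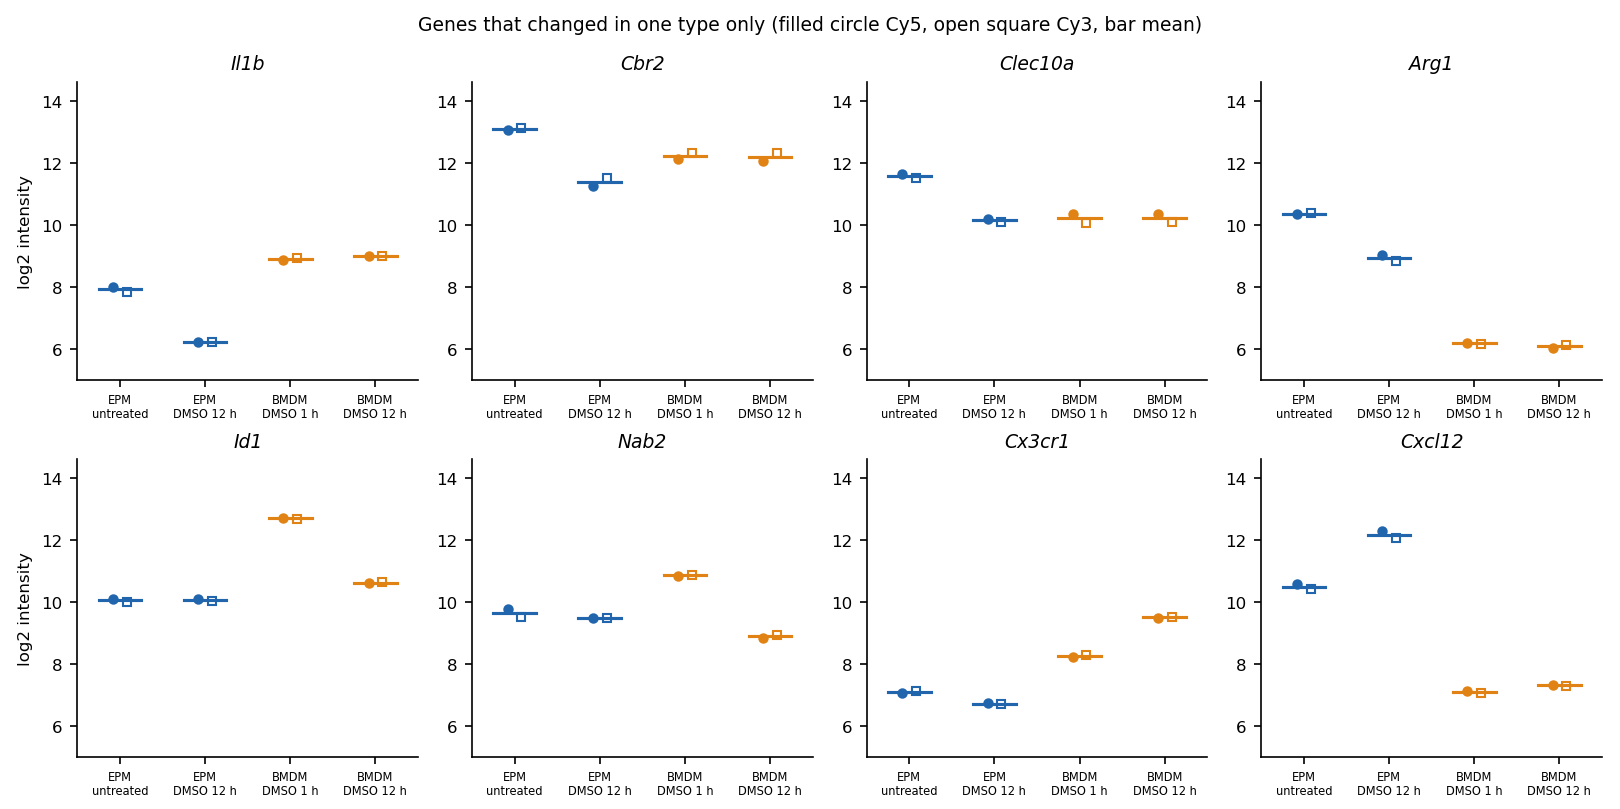
Log2 intensity of 8 genes that changed at least 2-fold in one type and by under 0.5 on the log2 scale in the other, by condition. Cy5 is a filled circle, Cy3 an open square and the mean a bar. Il1b, Cbr2, Clec10a and Arg1 are lower and Cxcl12 is higher at 12 h in EPM, Id1 and Nab2 are lower and Cx3cr1 is higher at 12 h in BMDM.

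In all, 126 genes changed in one type only, by a change of at least 1 on the log2 scale in that type, under 0.5 in the other, and a difference past the threshold and of at least 1. In EPM only, 38 rose and 18 fell, in BMDM only, 39 rose and 31 fell, and no gene changed at least 2-fold in opposite directions. Many of the large increases came from probes detected on a single array. Of the genes that rose at least 2-fold, 19 of 52 in EPM and 22 of 50 in BMDM were well above background in both channels of 1 of the 8 macrophage arrays and of no other, against 2 of 52 and 13 of 66 of those that fell. The share was 17 of 38 for EPM only increases and 21 of 39 for BMDM only increases. The 5 largest EPM only increases by the naming rule were Gria2, Cfap54, Dmp1, Cap2 and Emid1, and the first 3 were detected on the EPM 12 h array alone. Gria2, a glutamate receptor subunit gene, was at 6.00 and 5.93 in untreated EPM and at 8.18 and 8.16 at 12 h, at least 4.55-fold higher. This rested on 1 of 3 Gria2 probes, as the others changed by -0.11 and 0.08 in EPM and were not well above background, and the other Cfap54 probes were at 0.05 and 0.03. Pkp1, Scn7a and Olfr815, which encode a desmosomal plaque protein, a sodium channel and an odorant receptor, were likewise detected on the BMDM 12 h array alone. Over the genes well above background in all 8 control channels, 21 rose and 44 fell at least 2-fold in EPM, 18 rose and 42 fell in BMDM, and 42 changed in one type only. With a background offset of 16, with the processed signals and with the authors' values, 315, 655 and 194 genes changed in one type only.

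**Figure D5:**
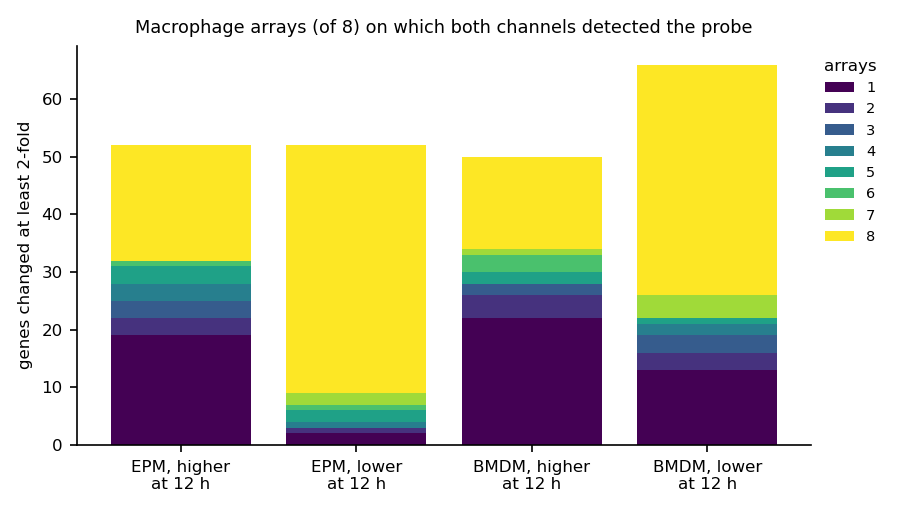
Number of genes changed at least 2-fold, by type and direction, divided by the number of the 8 macrophage arrays on which both channels of the probe were well above background. Probes detected on a single array make up 19 of 52 and 22 of 50 of the increases in EPM and BMDM but 2 of 52 and 13 of 66 of the decreases.

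Few members were called among subunits of oxidative phosphorylation and lysosomal genes, and more among targets of p53. For 27 subunits of oxidative phosphorylation the median was -0.01 in EPM and 0.01 in BMDM, where 2 were higher and 1 lower. Of 25 lysosomal genes, 1 was lower in EPM and 1 higher in BMDM. Of 15 targets of p53, 2 were higher and 6 lower in EPM, and 7 were higher and 1 lower in BMDM. Called lower in EPM and higher in BMDM were 3 of them. Of all genes, 11.8% were higher and 9.32% lower in EPM, and 14.3% and 10.9% in BMDM. Gdf15, a stress-induced cytokine, changed by -0.43 in EPM and 0.97 in BMDM, while Sesn1 and Phlda3 rose in both. The Sesn1 call in EPM was lost without the Cy5 replicate of untreated EPM or the Cy3 replicate at 12 h.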

How the data were processed

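RNA of 8 control macrophage samples was analysed from 4 two-colour Agilent arrays, and 8 samples treated with KLA entered only the normalization and the spread. Deposited were scanner intensity files, which the authors obtained from Agilent Feature Extraction 9.5.3.1, with mean, background and processed intensities per spot and probe positions on mm8, and a table of normalized intensities whose normalization is not given in the sources used here. The 2 files of each of 12 arrays were identical, so each channel was read once. Intensities were background corrected (normexp, offset 50), normalized by loess within and Aquantile between arrays, and taken as log2 single-channel values in R 4.3.3 with limma 3.58.1 and statmod 1.5.0. Of 41174 probes, 34871 had a symbol, through RefSeq accessions (23374), symbols (6733), synonyms (2919) or the file (1845). The brightest probe stood for a gene, and 16047 genes whose probe passed the scanner's background flag on each channel of 1 or more control conditions were tested with lmFit and eBayes (8 residual degrees of freedom, Benjamini-Hochberg, adjusted p under 0.05). On simulated data for the EPM comparison (15945 genes), 99 of 100 genes changed by 1 and 100 of 100 changed by 2 on the log2 scale were called, as were 9 of 15745 unchanged genes. The simulated noise was independent for each channel and had the spread between channels. It held no array, position or shared dye effect, so these counts do not cover false calls from such effects. A fold bound set the brighter mean against the lowest signal well above background.

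Cy5 held replicate 1 and Cy3 replicate 2 on every array. The difference between dyes correlated between all 28 pairs of arrays, at 0.402 to 0.649. As dye and replicate coincide, a dye effect and a pairing of the replicates cannot be told apart. The number of arrays limits the precision. The methods describe biological triplicates, while 2 channels a condition were analysed here. Culture of the BMDM is not given in the sources used here.

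Genes changed in both types if called with a log2 change of at least 1 in the same direction in both, and in one type only if called at 1 or more there, under 0.5 in the other, and with a called difference of at least 1. Genes were named by rule, from those past the threshold with channels that separated and a proper symbol. The rule took the 8 largest increases and decreases in each type and in both types, the 5 largest in one type only, and the extremes of each gene list. Other members of a list that are named were chosen after their values were seen. Some genes are counted in their lists but not reported here by name. The members and lists were chosen with earlier results of these data known. The alternatives covered background, normalization, the authors' values, filters, probes, the dye block, samples, early reference, centring, threshold and each replicate left out.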

Additional observations from a re-analysis of the deposited data

Results flagged for a closer look

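The change over time differed between EPM and BMDM for 2841 genes by the test of the difference itself (limma, adjusted p under 0.05). All differences below are the BMDM change minus the EPM change on the log2 scale. In each class of change in one type only, they are given for the 5 largest among genes that met the naming rule. Genes that the rule left out can have larger ones. Among increases in EPM only, the difference was -2.28 for Gria2, -1.96 for Cfap54, -1.82 for Dmp1, -1.82 for Cap2 and -1.79 for Emid1. Among decreases in EPM only, it was 1.80 for Il1b, 1.69 for Cbr2, 1.47 for Rtp4, 1.46 for Clec10a and 1.38 for Ifi27l2a. Among increases in BMDM only, it was 2.14 for Pkp1, 2.09 for Psg27, 1.996 for Scn7a, 1.92 for Olfr815 and 1.87 for Fam131b. Among decreases in BMDM only, it was -2.07 for Id1, -1.83 for Spam1, -1.81 for Nab2, -1.80 for Lratd1 and -1.63 for Olfr586. Gria2, Cfap54, Dmp1, Pkp1, Scn7a, Olfr815 and Spam1 were each detected on 1 of the 8 macrophage arrays. Cap2, Psg27, Fam131b and Olfr586 were each detected on 2, of which 1 was a control array. All of these genes passed the filter only through the 1 control condition in which they were high.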

How the results depend on the processing

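The number of genes called in EPM, BMDM and for the difference was 5589, 6399 and 4980 with the dye as a replicate block, and 1991, 2393 and 1499 at an adjusted p under 0.01. Leaving out each replicate gave 1962 to 3285 genes in EPM, 2439 to 4026 in BMDM, 1947 to 2390 for the difference, 6 to 8 changed in both types and 126 to 141 in one type only. Genes well above background in all 8 control channels gave 1804 for the difference and 42 in one type only. Changes in one type only numbered 315 with an offset of 16, 655 with the processed signal and 194 with the authors' values. Changes in both types numbered 58 with the processed signal and 3 with the mean of probes. The KLA 1 h array in place of the early control gave 6747 in EPM, 6890 in BMDM and 282 in both types, and it replaces the control with treated cells by construction. The other 92 values of these counts stayed within 1.5 times. For single genes, lists and the counts of 2-fold changes pooled, 6229 values stayed the same by their rule. Of the others, 359 were no longer past the threshold, 300 moved and 33 reversed. A gene stayed the same if it kept its direction and was past the threshold. A list did so if its median moved by no more than the standard deviation between the dyes, and a count if it stayed within 1.5 times.

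The reversals were as follows on the log2 scale. Ankrd44 was at -0.26 in EPM with an offset of 16 and -0.68 with the processed signal, and its difference at 0.26 and 0.61. The difference of Ccl12 was 0.82 with the processed signal. With the mean of probes Nr1d1 was at -0.15 in BMDM and its difference at -0.0463. With the KLA 1 h array as the early reference, EPM values were -4.36 for Ccl3, -5.43 for Ccl4, -3.87 for Egr1, -0.33 for Hspa5, -1.10 for Il1rn, 0.0799 for Osgin1, 0.29 for Per1, -1.003 for Serpinb2 and 0.0128 for Trib3. BMDM values were 0.15 for Atp5a1, -1.47 for Btg2, -2.28 for Ccl3, -2.74 for Ccl4, -0.89 for Gdf15, -3.15 for Hspa1a, 1.12 for Id1, -2.96 for Mx2, -1.84 for Serpinb2, 0.11 for Tef, -0.12 for Timp1 and 0.60 for Tsc22d3. Differences were -0.16 for Clec7a, -0.51 for Hspa1a, -0.56 for Hspa1b, 0.0250 for Id1 and 0.20 for Il1rn. Beyond what the settings replace by construction, the cause was not tested. Genes not well above background in a condition have only a bound there.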
